A study of Homo sapiens with 6 samples.

Results

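The 36 genes described here encode aminoacyl-tRNA synthetases, 20 of the cytosol and 16 of the mitochondrion, among 19089 genes with a read in at least 1 of 6 RNA sequencing libraries of human hepatocellular carcinoma cell lines. They were taken by symbol from a list, with names ending in 2 counted as mitochondrial, and no measured value entered that rule. HCCLM3 and MHCC97H, 2 related lines known for high metastatic capacity, were grown in DMEM with 10% fetal bovine serum, and Hep3B, a line that keeps many hepatocyte genes active, in MEM with sodium pyruvate and 15% serum, all with penicillin, streptomycin and ciprofloxacin. 2 polyadenylated RNA fractions of each line were sequenced: RNC-mRNA, recovered with ribosomes still holding their growing chain and so taken as the transcripts in translation, and mRNA of the whole cell. A library pooled material of 3 cultures in equal amounts, and there was 1 such library for a given line and fraction, without replicates. The effects of line and of medium cannot be told apart. The tables carry a letter for each fraction, A or C, which was read as mRNA and RNC-mRNA. No label states that reading outright, and if the letters were exchanged every ratio of RNC-mRNA to mRNA would change its sign.

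Each synthetase joins an amino acid to the tRNAs that carry its anticodon, and so sets the meaning of the codon at the ribosome. The cytosolic enzymes serve translation of nuclear genes, and 8 of them, EPRS, IARS, LARS, MARS, QARS, RARS, KARS and DARS, sit with scaffold proteins in the multisynthetase complex. The mitochondrial enzymes are also encoded in the nucleus, are imported, and serve the few proteins translated inside the organelle. GARS and KARS are known to give rise to the enzymes of both compartments. Many cytosolic synthetase genes are known targets of ATF4, the transcription factor made when amino acids run short or unfolded protein accumulates. The 13 counted here as known ATF4 targets were AARS, CARS, EPRS, GARS, IARS, LARS, MARS, NARS, SARS, TARS, VARS, WARS and YARS. This list was taken from general knowledge and not from these samples, but earlier results of these data were known when it was made.

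The gene tables held 119086844 to 147788269 reads per library, and 780 to 71235 of them fell on a given synthetase. The 95% counting half-width of a synthetase's log2 ratio between 2 libraries was 0.040 in the median and 0.14 at its widest. These intervals, and all others given here, cover counting error only. The labelled cell type was checked by 6 hepatocyte markers, and all 6 were lower in HCCLM3 and MHCC97H than in Hep3B, at least 2-fold, in both fractions. Albumin (ALB) had 1.03 RPKM in HCCLM3 and 6.90 RPKM in MHCC97H, against 4908 RPKM in Hep3B, all in RNC-mRNA. HCCLM3 and MHCC97H had under 1 RPKM of APOA1, SERPINA1 and the epithelial marker EPCAM in RNC-mRNA, while the epithelial keratin KRT8 had 1478 RPKM in HCCLM3 and 1447 RPKM in MHCC97H, against 685 RPKM in Hep3B there. Of 7 markers of other cell types, 2 reached 1 RPKM in each library, and their summed level was 64.6 and 78.1 RPKM in the HCCLM3 libraries, 54.9 and 57.8 RPKM in those of MHCC97H and 93.4 and 56.1 RPKM in those of Hep3B. Most of each sum was CD68, whereas the leukocyte marker PTPRC was at most 0.103 RPKM in any library. The pericyte and fibroblast marker PDGFRB had 0.0107 RPKM in HCCLM3 and 0.0151 RPKM in MHCC97H, against 11.1 RPKM in Hep3B, and the endothelial marker PECAM1 had 2.09 RPKM in HCCLM3 and 6.49 RPKM in MHCC97H, against 0.495 RPKM in Hep3B, all in RNC-mRNA. Both passed a ratio of 2 between these lines and Hep3B in both fractions, in opposite directions. The part of these markers in the synthetase values was not tested.

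All 36 synthetases were expressed in every library, at 2.01 to 138 RPKM (reads per kilobase of gene model, scaled to a library total). Together they took 0.297% of the reads in HCCLM3 RNC-mRNA, 0.309% in MHCC97H RNC-mRNA and 0.411% in Hep3B RNC-mRNA, and 0.337%, 0.351% and 0.472% of the reads in mRNA of HCCLM3, MHCC97H and Hep3B. The cytosolic genes were the higher ones, with a median of 31.5 RPKM in HCCLM3, 36.2 RPKM in MHCC97H and 37.0 RPKM in Hep3B RNC-mRNA, and 38.8, 35.8 and 45.7 RPKM in mRNA of HCCLM3, MHCC97H and Hep3B. The mitochondrial genes had medians of 8.63, 8.79 and 9.79 RPKM in RNC-mRNA and of 8.85, 8.82 and 11 RPKM in mRNA, in the same order of lines. By mean RPKM over the libraries, the alanine enzyme AARS led the cytosolic genes with 91.9 RPKM, and the mitochondrial isoleucine enzyme IARS2 led the mitochondrial ones with 29.3 RPKM.

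AARS had 66.0 RPKM in HCCLM3 and 62.1 RPKM in MHCC97H RNC-mRNA, against 127 RPKM in Hep3B RNC-mRNA, and 79.9 RPKM in HCCLM3 and 79.0 RPKM in MHCC97H mRNA, against 138 RPKM in Hep3B mRNA. The glycine enzyme GARS had 61.1 RPKM in HCCLM3 and 72.9 RPKM in MHCC97H RNC-mRNA, against 116 RPKM in Hep3B RNC-mRNA, and 64.3 RPKM in HCCLM3 and 65.3 RPKM in MHCC97H mRNA, against 116 RPKM in Hep3B mRNA. In both fractions these genes stood highest in Hep3B, and HCCLM3 and MHCC97H lay nearer to each other than to Hep3B. The methionine enzyme MARS had 58.5 RPKM in HCCLM3 and 63.6 RPKM in MHCC97H RNC-mRNA, against 63.2 RPKM in Hep3B RNC-mRNA, and 65.5 RPKM in HCCLM3 and 72.5 RPKM in MHCC97H mRNA, against 87.5 RPKM in Hep3B mRNA. MARS was highest in Hep3B mRNA, yet in RNC-mRNA the 3 lines lay close together. The valine enzyme VARS and the serine enzyme SARS completed the 5 highest cytosolic genes, with means of 69.8 and 66.2 RPKM, and their values are given with the line differences.

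The 5 lowest cytosolic genes were CARS, LARS, HARS, FARSB and RARS, with means of 17.4 to 21.3 RPKM. CARS, which charges cysteine, had 15.3 RPKM in HCCLM3 and 16.7 RPKM in MHCC97H RNC-mRNA, against 16.7 RPKM in Hep3B RNC-mRNA, and 16.8 RPKM in HCCLM3 and 17.4 RPKM in MHCC97H mRNA, against 21.3 RPKM in Hep3B mRNA. LARS, the leucine enzyme and a sensor of leucine for the growth regulator mTORC1, had 16.8 RPKM in HCCLM3 and 16.9 RPKM in MHCC97H RNC-mRNA, against 14.4 RPKM in Hep3B RNC-mRNA, and 18.3 RPKM in HCCLM3 and 18.4 RPKM in MHCC97H mRNA, against 21.2 RPKM in Hep3B mRNA. For CARS the highest library was over the lowest by a ratio of 1.39 and for LARS by 1.47. In Hep3B both were lower in RNC-mRNA than in mRNA, with log2 ratios of -0.35 for CARS and -0.55 for LARS. RARS, which charges arginine, had 23.8 RPKM in HCCLM3 and 24.8 RPKM in MHCC97H RNC-mRNA, against 15.3 RPKM in Hep3B RNC-mRNA, and 25.2 RPKM in HCCLM3 and 21.9 RPKM in MHCC97H mRNA, against 16.4 RPKM in Hep3B mRNA. Unlike AARS and GARS, RARS was lowest in the Hep3B libraries.

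**Figure D1:**
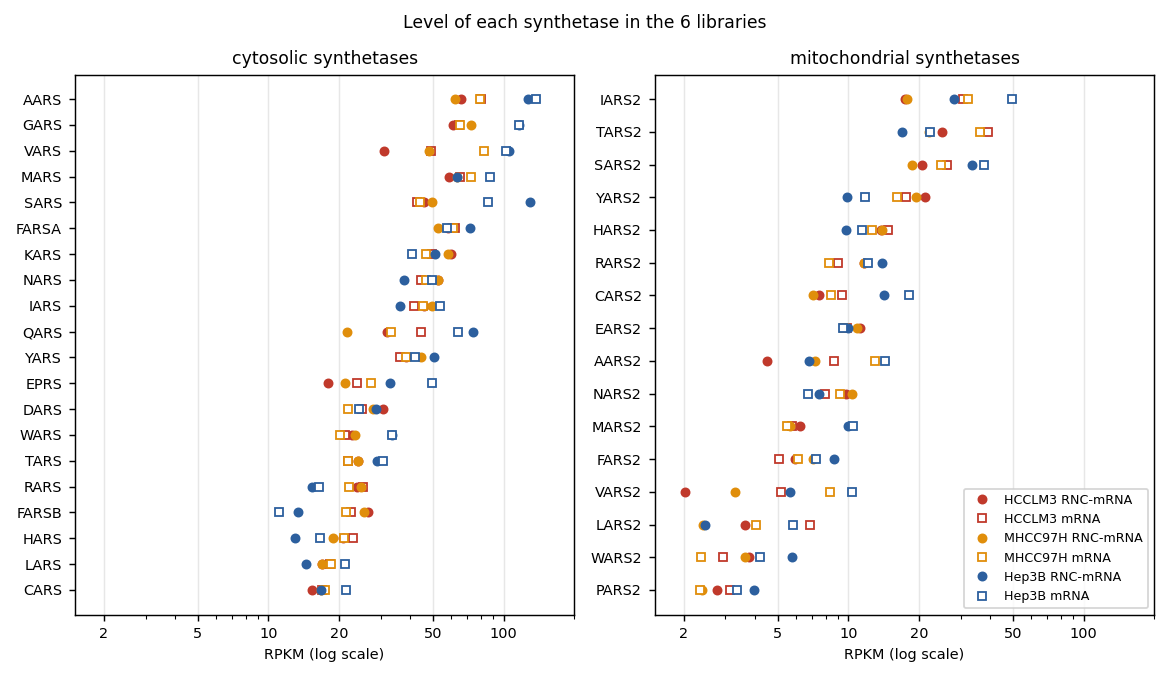
Level of each synthetase in RPKM on a log axis, cytosolic genes left and mitochondrial genes right, ordered by mean. Filled circles are RNC-mRNA and open squares are mRNA, with HCCLM3 red, MHCC97H orange and Hep3B blue, 1 library each. Cytosolic genes lie between 11.1 and 138 RPKM and mitochondrial genes between 2.01 and 49.5 RPKM, and VARS2 has the widest range, a ratio of 5.14.

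Among the mitochondrial genes, IARS2 had 17.4 RPKM in HCCLM3 and 17.8 RPKM in MHCC97H RNC-mRNA, against 28.2 RPKM in Hep3B RNC-mRNA, and 30.7 RPKM in HCCLM3 and 32.2 RPKM in MHCC97H mRNA, against 49.5 RPKM in Hep3B mRNA. TARS2, which charges threonine, had 25 RPKM in HCCLM3 and 22.1 RPKM in MHCC97H RNC-mRNA, against 16.8 RPKM in Hep3B RNC-mRNA, and 39.3 RPKM in HCCLM3 and 36.1 RPKM in MHCC97H mRNA, against 22.3 RPKM in Hep3B mRNA. The lines ranked in opposite orders for these genes, with Hep3B highest for IARS2 and lowest for TARS2, and for both the mRNA level was above the RNC-mRNA level in every line. The serine enzyme SARS2 had 20.6 RPKM in HCCLM3 and 18.6 RPKM in MHCC97H RNC-mRNA, against 33.4 RPKM in Hep3B RNC-mRNA, and 26.2 RPKM in HCCLM3 and 24.7 RPKM in MHCC97H mRNA, against 37.8 RPKM in Hep3B mRNA. As for IARS2, Hep3B was highest in both fractions. At the low end, the proline enzyme PARS2 had 2.77 RPKM in HCCLM3 and 2.38 RPKM in MHCC97H RNC-mRNA, against 3.95 RPKM in Hep3B RNC-mRNA, and 3.14 RPKM in HCCLM3 and 2.33 RPKM in MHCC97H mRNA, against 3.36 RPKM in Hep3B mRNA. The tryptophan enzyme WARS2 had 3.78 RPKM in HCCLM3 and 3.62 RPKM in MHCC97H RNC-mRNA, against 5.74 RPKM in Hep3B RNC-mRNA, and 2.93 RPKM in HCCLM3 and 2.36 RPKM in MHCC97H mRNA, against 4.19 RPKM in Hep3B mRNA. FARS2, which charges phenylalanine, had 5.93 RPKM in HCCLM3 and 7.04 RPKM in MHCC97H RNC-mRNA, against 8.72 RPKM in Hep3B RNC-mRNA, and 5.08 RPKM in HCCLM3 and 6.13 RPKM in MHCC97H mRNA, against 7.25 RPKM in Hep3B mRNA. PARS2, WARS2 and FARS2 were each highest in Hep3B RNC-mRNA. FARS2 shares part of its locus with the coding gene LYRM4 in the RefSeq annotation, and MARS, YARS, CARS2 and EARS2 likewise overlap a coding gene. The sources used here do not say how reads over such overlaps were counted, so the values of these 5 members are uncertain in that respect.

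For each of the 16 mitochondrial enzymes the cytosolic enzyme of the same amino acid gives a direct comparison, with EPRS, which charges both glutamate and proline, taken for EARS2 and for PARS2. The cytosolic gene was the higher of the pair in 15 of 16 pairs in HCCLM3 RNC-mRNA, 16 of 16 in MHCC97H RNC-mRNA and 16 of 16 in Hep3B RNC-mRNA, and in 15, 15 and 16 of 16 pairs in mRNA of HCCLM3, MHCC97H and Hep3B. The exception in each of the 3 libraries was threonine. TARS, the cytosolic threonine enzyme, had 24.0 RPKM in HCCLM3 and 24.1 RPKM in MHCC97H RNC-mRNA, against 28.8 RPKM in Hep3B RNC-mRNA, and 21.9 RPKM in HCCLM3 and 21.9 RPKM in MHCC97H mRNA, against 30.6 RPKM in Hep3B mRNA, so TARS2 was above it in HCCLM3 RNC-mRNA and in the mRNA of HCCLM3 and MHCC97H. The gap was wide for alanine, where the ratio of AARS to AARS2 was 6.06 to 18.6 over the libraries, and for valine, where VARS was 9.45 to 18.6 times VARS2. It was narrow for histidine, where HARS was 1.33 to 1.66 times HARS2, and for isoleucine and arginine, with ratios of 1.08 to 2.77 and 1.10 to 2.81. The remaining pairs lay between ratios of 1.18 for cysteine in its lowest library and 14.7 for proline in its highest.

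The first comparison asked how the synthetases differed between the lines. Line differences were ratios of (RPKM + 0.1), and a call needed a 2-fold difference and 1 RPKM or more in the higher of the libraries compared. With 1 library a group there is no test and no p-value. More synthetases lay below Hep3B than above it in both related lines, and few passed a ratio of 2. In RNC-mRNA, 4 of 36 synthetases were lower in HCCLM3 than in Hep3B by the rule (VARS, SARS, VARS2 and QARS), where 17.7% of all genes passed it, and 1 was higher (YARS2), against 25.5% of all genes. MHCC97H had 4 lower than Hep3B in this fraction (QARS, SARS, VARS and AARS), against 17.4% of all genes, and 0 higher, against 25.2%. In mRNA, 2 were lower in HCCLM3 than in Hep3B (VARS and EPRS), against 21.3% of all genes, and 1 higher (FARSB), against 18.7%. MHCC97H mRNA had 1 lower than Hep3B (CARS2), against 19.6% of all genes, and 0 were higher, against 18.0%. The share of synthetases past a ratio of 2 was therefore below that of all genes in each of these comparisons, with RPKM as deposited. A lower level in a bulk library can come from fewer cells with the transcript or from less RNA per cell, which cannot be told apart here.

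Without the size rule, 22 of 36 synthetases lay below Hep3B in HCCLM3 RNC-mRNA and 21 in MHCC97H RNC-mRNA, with median log2 ratios of -0.29 and -0.21. In mRNA 24 and 26 of 36 lay below, with medians of -0.39 and -0.28. Over the 9662 genes with at least 1 RPKM in all 6 libraries the median log2 ratio was 0.24 for HCCLM3 and 0.25 for MHCC97H in RNC-mRNA, and -0.001 and 0.02 in mRNA. Relative to these medians, 26 and 27 of 36 synthetases lay lower in RNC-mRNA of HCCLM3 and MHCC97H, and 24 and 27 lay lower in mRNA. When libraries were rescaled so that the median ratio of all genes was near 0, 8 synthetases passed the rule as lower and 0 as higher in RNC-mRNA of each line. The share lower was then near that of all genes, which was 22.2% lower and 20.1% higher in HCCLM3 and 21.8% lower and 19.6% higher in MHCC97H. With upper-quartile scaling, 5 were lower in HCCLM3 mRNA, against 22.6% of all genes, and 4 in MHCC97H mRNA, against 21.3%, and 0 were higher in either, against 17.3% and 16.4%.

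In mRNA all 13 known ATF4 targets lay below Hep3B in both lines, and VARS, SARS, EPRS and AARS were those that passed a ratio of 2 in at least 1 comparison. VARS had 31.1 RPKM in HCCLM3 and 48.3 RPKM in MHCC97H RNC-mRNA, against 105 RPKM in Hep3B RNC-mRNA, and 49.0 RPKM in HCCLM3 and 82.6 RPKM in MHCC97H mRNA, against 102 RPKM in Hep3B mRNA. Its log2 ratio was -1.75 (95% counting interval -1.78 to -1.73) for HCCLM3 and -1.12 (95% counting interval -1.14 to -1.10) for MHCC97H, both over Hep3B in RNC-mRNA, and -1.06 and -0.31 in mRNA. In both related lines VARS was thus farther below Hep3B in RNC-mRNA than in mRNA. SARS had 46.0 RPKM in HCCLM3 and 49.4 RPKM in MHCC97H RNC-mRNA, against 129 RPKM in Hep3B RNC-mRNA, and 42.9 RPKM in HCCLM3 and 44.2 RPKM in MHCC97H mRNA, against 85.6 RPKM in Hep3B mRNA. The SARS log2 ratios were -1.49 and -1.38 in RNC-mRNA and -1.0 and -0.95 in mRNA, for HCCLM3 and MHCC97H over Hep3B. SARS was therefore again wider apart in RNC-mRNA.

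EPRS, the bifunctional enzyme for glutamate and proline that also joins a translation-silencing complex, had 17.9 RPKM in HCCLM3 and 21.2 RPKM in MHCC97H RNC-mRNA, against 32.9 RPKM in Hep3B RNC-mRNA, and 23.8 RPKM in HCCLM3 and 27.3 RPKM in MHCC97H mRNA, against 49.4 RPKM in Hep3B mRNA. Its log2 ratios were -0.87 in HCCLM3 and -0.63 in MHCC97H RNC-mRNA and -1.05 and -0.85 in mRNA. Hep3B was highest in both fractions, with the wider gap in mRNA as deposited. For HCCLM3 and MHCC97H the median of all genes was 0.24 and 0.25 in RNC-mRNA and -0.001 and 0.02 in mRNA. Relative to these medians the EPRS gap was not wider in mRNA. The AARS log2 ratios were -0.94 for HCCLM3 and -1.03 for MHCC97H in RNC-mRNA and -0.78 and -0.80 in mRNA, and those of GARS -0.92 and -0.67 in RNC-mRNA and -0.85 and -0.83 in mRNA. WARS, the tryptophan enzyme and a gene known to be induced by interferon, had 22.7 RPKM in HCCLM3 and 23.4 RPKM in MHCC97H RNC-mRNA, against 33.5 RPKM in Hep3B RNC-mRNA, and 21.1 RPKM in HCCLM3 and 20.1 RPKM in MHCC97H mRNA, against 33.4 RPKM in Hep3B mRNA. Here too Hep3B was highest, with log2 ratios of -0.66 for HCCLM3 and -0.73 for MHCC97H over it in mRNA. YARS, the tyrosine enzyme, had 38.3 RPKM in HCCLM3 and 44.5 RPKM in MHCC97H RNC-mRNA, against 50.3 RPKM in Hep3B RNC-mRNA, and 36.2 RPKM in HCCLM3 and 38.5 RPKM in MHCC97H mRNA, against 42.0 RPKM in Hep3B mRNA. YARS was highest in Hep3B in both fractions, by less than the others named.

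In HCCLM3 over Hep3B the mRNA ratios of the 13 had a median log2 ratio of -0.48 and a range of -1.06 for VARS to -0.15 for NARS, the asparagine enzyme. In MHCC97H over Hep3B they had a median of -0.31 and a range of -0.95 for SARS to -0.09 for NARS. Of the 9662 genes 50.1% and 48.9% lay below 0 in these comparisons. The count was 13 of 13 in both lines with pseudocounts of 1 and 0.01 RPKM, with median-ratio scaling and with upper-quartile scaling. The count below 0 was added after the values were seen. Both comparisons share the Hep3B library, and 2 of the 13 passed a ratio of 2 in HCCLM3 and 0 in MHCC97H. In RNC-mRNA 10 of 13 lay below 0 in HCCLM3 and 8 of 13 in MHCC97H as deposited, where 39.7% and 38.9% of the 9662 genes did, with medians of -0.39 and -0.26, while 11 of 13 in each line lay below the median of all genes. The isoleucine enzyme IARS and NARS were the 2 that lay above that median in RNC-mRNA of both lines. IARS had 46.1 RPKM in HCCLM3 and 49.3 RPKM in MHCC97H RNC-mRNA, against 36.3 RPKM in Hep3B RNC-mRNA, and 41.4 RPKM in HCCLM3 and 45.3 RPKM in MHCC97H mRNA, against 53.4 RPKM in Hep3B mRNA. NARS had 52.7 RPKM in HCCLM3 and 52.6 RPKM in MHCC97H RNC-mRNA, against 37.6 RPKM in Hep3B RNC-mRNA, and 44.6 RPKM in HCCLM3 and 46.5 RPKM in MHCC97H mRNA, against 49.7 RPKM in Hep3B mRNA. For both genes Hep3B was the highest line in mRNA and the lowest in RNC-mRNA.

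**Figure D2:**
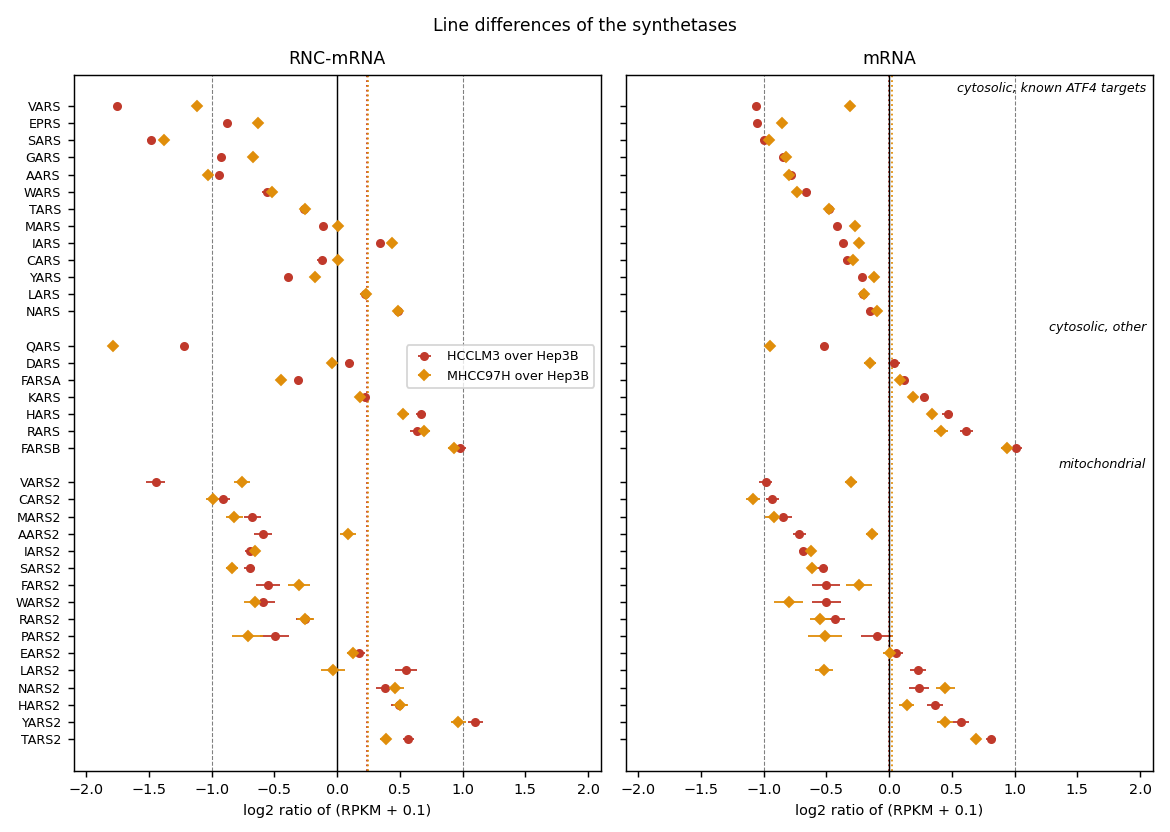
Log2 ratio of (RPKM + 0.1) of HCCLM3 over Hep3B (red circles) and of MHCC97H over Hep3B (orange diamonds) for each synthetase, in RNC-mRNA (left) and mRNA (right), grouped as known ATF4 targets, other cytosolic and mitochondrial genes. Bars are 95% counting intervals, dotted lines the medians of all genes, and dashed lines a ratio of 2. In mRNA all 13 known targets lie left of 0 in both lines. In RNC-mRNA VARS lies farthest left for HCCLM3 and QARS for MHCC97H.

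ATF4 binds, as a dimer with C/EBP proteins, to an element with the letters TGATGNAA. The 300 bases around each start site (250 before and 50 after, RefSeq, GRCh38.p14) were searched for it on both strands. A promoter was found for 30 of the 36 members, and DARS, LARS, VARS, YARS, AARS2 and VARS2 had no entry. The letters occurred in 8 of these 30 members, which were 7 of 16 cytosolic and 1 of 14 mitochondrial genes, and in 7 of 10 known ATF4 targets with a promoter. Counted by promoter, 20.5% of 39 member promoters held a match, against 3.62% of all 35116 promoters of the same length. The matches, in capitals with 10 bases on either side, are shown on the gene's own strand because they let the shared letters be compared.
AARS: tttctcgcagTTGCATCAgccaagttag
CARS: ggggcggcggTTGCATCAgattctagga
GARS: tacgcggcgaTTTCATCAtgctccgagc
IARS: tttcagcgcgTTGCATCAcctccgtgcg
MARS: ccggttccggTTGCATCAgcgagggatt
NARS: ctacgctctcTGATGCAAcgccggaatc
TARS: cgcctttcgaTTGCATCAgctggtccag
YARS2: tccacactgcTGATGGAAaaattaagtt

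In 6 of the 8 the matched letters were TGATGCAA, read on the opposite strand in AARS, CARS, IARS, MARS and TARS and on the gene's strand in NARS, whereas GARS had TGATGAAA on the opposite strand and YARS2 TGATGGAA on its own strand. The first base of the match lay at -2 from the start site in CARS, -4 in MARS, -13 in IARS and -33 in GARS, at 3 in TARS and 15 in NARS, and farther out at -187 in AARS and -197 in YARS2. A match is a description of the letters, and its absence says only that they are not in this window. The 3 known targets with a promoter and no match were EPRS, SARS and WARS, whose mRNA log2 ratios for HCCLM3 over Hep3B were -1.05, -1.0 and -0.66, while those of the 7 with a match were between -0.85 for GARS and -0.15 for NARS.

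The 7 other cytosolic synthetases moved less uniformly. In mRNA 6 of 7 lay above 0 in HCCLM3 over Hep3B and 5 of 7 in MHCC97H, with medians of 0.28 and 0.19, and with upper-quartile scaling 5 of 7 in each. In RNC-mRNA 3 of 7 lay above the median of all genes in each line. QARS, the glutamine enzyme, was the one far below Hep3B. It had 31.9 RPKM in HCCLM3 and 21.5 RPKM in MHCC97H RNC-mRNA, against 74.3 RPKM in Hep3B RNC-mRNA, and 44.6 RPKM in HCCLM3 and 33.1 RPKM in MHCC97H mRNA, against 64.1 RPKM in Hep3B mRNA. The log2 ratio of QARS was -1.22 (95% counting interval -1.25 to -1.19) for HCCLM3 and -1.78 (95% counting interval -1.82 to -1.75) for MHCC97H, both over Hep3B in RNC-mRNA, and -0.52 and -0.95 in mRNA. MHCC97H was thus the lowest line for QARS in both fractions, and the gap to Hep3B was wider in RNC-mRNA. KARS, the lysine enzyme, had 59.8 RPKM in HCCLM3 and 58.0 RPKM in MHCC97H RNC-mRNA, against 51.2 RPKM in Hep3B RNC-mRNA, and 49.5 RPKM in HCCLM3 and 46.7 RPKM in MHCC97H mRNA, against 40.8 RPKM in Hep3B mRNA. DARS, which charges aspartate, had 30.6 RPKM in HCCLM3 and 27.8 RPKM in MHCC97H RNC-mRNA, against 28.6 RPKM in Hep3B RNC-mRNA, and 24.9 RPKM in HCCLM3 and 21.8 RPKM in MHCC97H mRNA, against 24.3 RPKM in Hep3B mRNA. KARS and DARS stayed within log2 ratios of -0.15 and 0.28 of Hep3B in every comparison as deposited.

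FARSA and FARSB encode the alpha and beta subunits that together form the cytosolic phenylalanine enzyme. FARSA had 57.9 RPKM in HCCLM3 and 52.5 RPKM in MHCC97H RNC-mRNA, against 71.7 RPKM in Hep3B RNC-mRNA, and 62.0 RPKM in HCCLM3 and 60.8 RPKM in MHCC97H mRNA, against 57.3 RPKM in Hep3B mRNA. FARSB had 26.5 RPKM in HCCLM3 and 25.5 RPKM in MHCC97H RNC-mRNA, against 13.4 RPKM in Hep3B RNC-mRNA, and 22.4 RPKM in HCCLM3 and 21.3 RPKM in MHCC97H mRNA, against 11.1 RPKM in Hep3B mRNA. FARSB was thus lowest in Hep3B in both fractions, whereas in mRNA the FARSA levels of the 3 lines lay close together. The FARSB log2 ratios over Hep3B were 0.98 (95% counting interval 0.94 to 1.02) in HCCLM3 and 0.93 in MHCC97H RNC-mRNA, and 1.01 and 0.94 in mRNA, while those of FARSA were -0.31 and -0.45 in RNC-mRNA and 0.11 and 0.09 in mRNA. The level of FARSA over that of FARSB was accordingly 2.18 in HCCLM3, 2.06 in MHCC97H and 5.37 in Hep3B RNC-mRNA, and 2.77, 2.85 and 5.17 in mRNA of HCCLM3, MHCC97H and Hep3B. This ratio within a library does not depend on how the libraries are scaled. With upper-quartile scaling FARSB no longer passed a ratio of 2 in HCCLM3 mRNA.

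HARS and HARS2, the cytosolic and mitochondrial histidine enzymes, are neighbours on chromosome 5, read in opposite directions from start sites 85 bases apart. The HARS2 promoter window (RefSeq, GRCh38.p14, chr5:140691205-140691504, plus strand) is shown with the 184 bases it shares with the HARS window in capitals, because both genes are read outward from it.
HARS2: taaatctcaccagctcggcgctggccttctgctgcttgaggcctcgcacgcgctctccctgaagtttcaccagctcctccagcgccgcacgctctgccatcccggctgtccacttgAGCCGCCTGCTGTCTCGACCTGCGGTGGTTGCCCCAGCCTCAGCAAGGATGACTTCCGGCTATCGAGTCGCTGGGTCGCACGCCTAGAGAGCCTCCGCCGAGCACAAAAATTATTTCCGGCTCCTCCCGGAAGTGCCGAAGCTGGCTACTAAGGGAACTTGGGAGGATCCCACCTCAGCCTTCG

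HARS had 20.7 RPKM in HCCLM3 and 18.8 RPKM in MHCC97H RNC-mRNA, against 13.0 RPKM in Hep3B RNC-mRNA, and 22.9 RPKM in HCCLM3 and 21.0 RPKM in MHCC97H mRNA, against 16.5 RPKM in Hep3B mRNA. HARS2 had 13.8 RPKM in HCCLM3 and 13.9 RPKM in MHCC97H RNC-mRNA, against 9.75 RPKM in Hep3B RNC-mRNA, and 14.8 RPKM in HCCLM3 and 12.6 RPKM in MHCC97H mRNA, against 11.5 RPKM in Hep3B mRNA. Both genes were lowest in Hep3B in each fraction. The log2 ratios over Hep3B in RNC-mRNA were 0.67 and 0.53 for HARS and 0.49 and 0.50 for HARS2, in HCCLM3 and MHCC97H, and in mRNA 0.47 and 0.34 for HARS and 0.37 and 0.14 for HARS2. Neither passed a ratio of 2.

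The mitochondrial synthetases had RNC-mRNA medians of -0.52 for HCCLM3 and -0.28 for MHCC97H over Hep3B and medians of -0.47 and -0.41 in mRNA. Of the 16, 11 and 12 lay below the median of all genes in RNC-mRNA, and 10 and 12 in mRNA. VARS2, the valine enzyme, had 2.01 RPKM in HCCLM3 and 3.30 RPKM in MHCC97H RNC-mRNA, against 5.66 RPKM in Hep3B RNC-mRNA, and 5.19 RPKM in HCCLM3 and 8.38 RPKM in MHCC97H mRNA, against 10.4 RPKM in Hep3B mRNA. Its log2 ratio over Hep3B was -1.45 (95% counting interval -1.52 to -1.37) in HCCLM3 and -0.76 in MHCC97H RNC-mRNA, and -0.98 and -0.30 in mRNA. HCCLM3 was thus the lowest line for VARS2 in both fractions. CARS2, the cysteine enzyme, had 7.48 RPKM in HCCLM3 and 7.05 RPKM in MHCC97H RNC-mRNA, against 14.1 RPKM in Hep3B RNC-mRNA, and 9.40 RPKM in HCCLM3 and 8.44 RPKM in MHCC97H mRNA, against 18 RPKM in Hep3B mRNA, with log2 ratios of -0.91 and -0.99 in RNC-mRNA and -0.93 and -1.08 in mRNA. The CARS2 levels of HCCLM3 and MHCC97H lay close together and below Hep3B. YARS2, which charges tyrosine, had 21.2 RPKM in HCCLM3 and 19.3 RPKM in MHCC97H RNC-mRNA, against 9.82 RPKM in Hep3B RNC-mRNA, and 17.5 RPKM in HCCLM3 and 16.0 RPKM in MHCC97H mRNA, against 11.7 RPKM in Hep3B mRNA. It was the synthetase farthest above Hep3B in RNC-mRNA, by 1.10 (95% counting interval 1.04 to 1.16) in HCCLM3 and 0.97 in MHCC97H, against 0.57 and 0.45 in mRNA, and no longer passed a ratio of 2 with median-ratio scaling. TARS2 was the mitochondrial gene farthest above in mRNA, by 0.82 and 0.69, against 0.57 and 0.39 in RNC-mRNA. The remaining mitochondrial genes stayed within a ratio of 2 of Hep3B in each comparison.

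Among those that stayed within a ratio of 2, MARS2, which charges methionine, had 6.22 RPKM in HCCLM3 and 5.62 RPKM in MHCC97H RNC-mRNA, against 9.99 RPKM in Hep3B RNC-mRNA, and 5.77 RPKM in HCCLM3 and 5.49 RPKM in MHCC97H mRNA, against 10.5 RPKM in Hep3B mRNA. NARS2, which charges asparagine, had 9.79 RPKM in HCCLM3 and 10.3 RPKM in MHCC97H RNC-mRNA, against 7.48 RPKM in Hep3B RNC-mRNA, and 7.93 RPKM in HCCLM3 and 9.20 RPKM in MHCC97H mRNA, against 6.72 RPKM in Hep3B mRNA. Hep3B was thus highest for MARS2 and lowest for NARS2, by mRNA log2 ratios of -0.85 and -0.92 for MARS2 and 0.24 and 0.45 for NARS2 in HCCLM3 and MHCC97H. EARS2, which charges glutamate, had 11.3 RPKM in HCCLM3 and 10.9 RPKM in MHCC97H RNC-mRNA, against 9.97 RPKM in Hep3B RNC-mRNA, and 9.89 RPKM in HCCLM3 and 9.53 RPKM in MHCC97H mRNA, against 9.51 RPKM in Hep3B mRNA. EARS2 had the narrowest range of the 36, a ratio of 1.18 between its highest and lowest library. RARS2, which charges arginine, had 11.6 RPKM in HCCLM3 and 11.7 RPKM in MHCC97H RNC-mRNA, against 13.9 RPKM in Hep3B RNC-mRNA, and 8.99 RPKM in HCCLM3 and 8.27 RPKM in MHCC97H mRNA, against 12.1 RPKM in Hep3B mRNA. RARS2 was highest in Hep3B in each fraction, and in every line its RNC-mRNA level was above its mRNA level.

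Between HCCLM3 and MHCC97H no synthetase passed a ratio of 2, in RNC-mRNA (0 of 36, against 2.95% of all genes) or in mRNA (0 of 36, against 2.56%). The 5 members farthest from 0 were the same in both fractions and lay on chromosomes 3 and 6. VARS, VARS2 and AARS2, on chromosome 6, were lower in HCCLM3, with log2 ratios over MHCC97H of -0.63, -0.69 and -0.67 in RNC-mRNA and -0.75, -0.68 and -0.57 in mRNA. AARS2, the mitochondrial alanine enzyme, had 4.49 RPKM in HCCLM3 and 7.23 RPKM in MHCC97H RNC-mRNA, against 6.81 RPKM in Hep3B RNC-mRNA, and 8.72 RPKM in HCCLM3 and 13.0 RPKM in MHCC97H mRNA, against 14.4 RPKM in Hep3B mRNA. QARS and LARS2, on chromosome 3, were higher in HCCLM3, with log2 ratios of 0.56 and 0.58 in RNC-mRNA and 0.43 and 0.75 in mRNA. LARS2, the mitochondrial leucine enzyme, had 3.64 RPKM in HCCLM3 and 2.40 RPKM in MHCC97H RNC-mRNA, against 2.46 RPKM in Hep3B RNC-mRNA, and 6.88 RPKM in HCCLM3 and 4.05 RPKM in MHCC97H mRNA, against 5.84 RPKM in Hep3B mRNA. Hep3B had the highest AARS2 mRNA, and HCCLM3 the highest LARS2 in both fractions.

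The genes next to these members on the chromosome differed in the same direction. For each member the median log2 ratio of up to 40 nearest genes that reached 1 RPKM in all 6 libraries was taken, 20 on either side in the RefSeq order. In mRNA this median was -0.48 around VARS, -0.48 around VARS2 and -0.52 around AARS2, and 38, 40 and 39 of the 40 neighbours lay below 0. Around QARS and LARS2 it was 0.59 and 0.54, with 40 of 40 neighbours above 0 at each. In RNC-mRNA the medians were -0.46, -0.50 and -0.54 around VARS, VARS2 and AARS2, and 0.62 and 0.57 around QARS and LARS2. FARS2, also on chromosome 6, was at -0.24 in RNC-mRNA and -0.27 in mRNA, with neighbour medians of -0.43 and -0.45. RARS2, on the same chromosome, was at 0.12 in mRNA with a neighbour median of -0.08. Over 8477 such windows in the genome, the 5th and the 95th percentile of the medians were -0.41 and 0.12 in RNC-mRNA and -0.44 and 0.08 in mRNA. Against Hep3B the neighbours of VARS were lower too, with medians of -1.14 for HCCLM3 and -0.67 for MHCC97H in RNC-mRNA, where VARS itself was at -1.75 and -1.12. Around QARS they were at 0.55 and -0.14, where QARS itself was at -1.22 and -1.78. Around CARS2, on chromosome 13, the median of 36 neighbours was -2.06 for HCCLM3 and -2.005 for MHCC97H in mRNA, with 35 of 36 below 0 in each, where CARS2 itself was at -0.93 and -1.08. Around YARS2, on chromosome 12, it was 1.31 and 1.46 in RNC-mRNA, where YARS2 itself was at 1.10 and 0.97. The neighbours of CARS2 in mRNA and of YARS2 in RNC-mRNA thus lay farther from Hep3B than these members. In mRNA the median around YARS2 was 0.42 for HCCLM3 and 0.49 for MHCC97H, where YARS2 itself was at 0.57 and 0.45. There YARS2 lay farther from Hep3B than its neighbours in HCCLM3. Around SARS and AARS the RNC-mRNA medians were 0.33 and 0.28 for SARS and 0.29 and 0.20 for AARS, opposite in sign to the members. The median over all windows was itself 0.28 in RNC-mRNA of each line over Hep3B. In mRNA the neighbour medians had the sign of the members, at -0.03 and -0.11 around SARS and -0.07 and -0.15 around AARS. There SARS itself was at -1.0 and -0.95 and AARS at -0.78 and -0.80. Windows of genes close together, such as VARS and VARS2, can share neighbours, and the part of the chromosomal region in these differences was not tested.

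**Figure D3:**
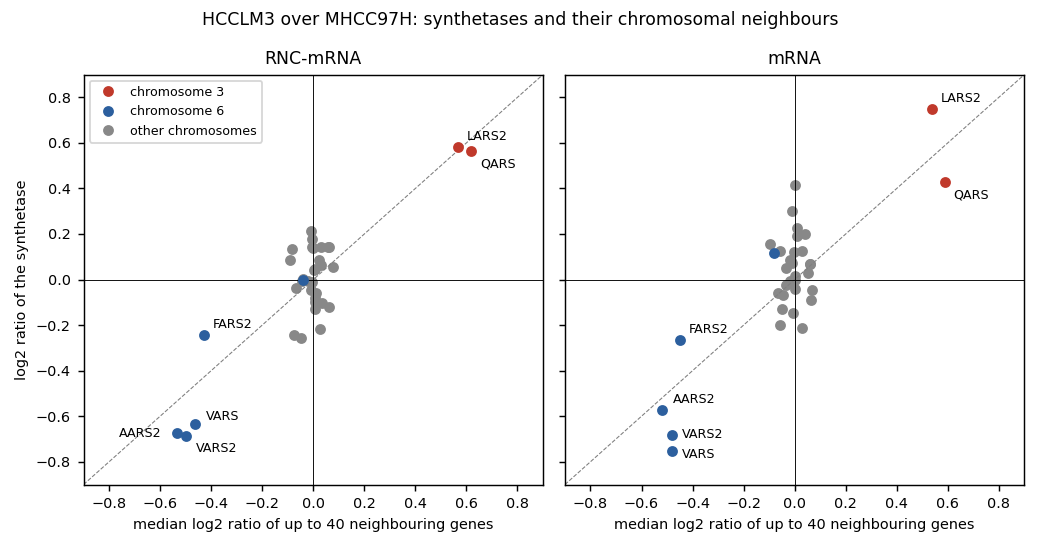
Log2 ratio of HCCLM3 over MHCC97H of each synthetase (vertical axis) against the median log2 ratio of up to 40 nearest expressed genes (horizontal axis), in RNC-mRNA (left) and mRNA (right). Points are members, those on chromosome 3 red, on chromosome 6 blue and on other chromosomes grey, and the dashed line marks equal values. LARS2 and QARS lie at the upper right and VARS, VARS2 and AARS2 at the lower left, with neighbour medians of 0.54 and 0.59 and of -0.52 to -0.48 in mRNA, while the unlabelled blue point near 0 is RARS2.

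The second comparison asked which synthetase transcripts were more or less abundant in RNC-mRNA than in mRNA of the same line. Ratios of (RPKM + 0.1) were used for genes that reached 1 RPKM in each of the fractions. In HCCLM3 1 of 36 synthetases was lower in RNC-mRNA by a ratio of at least 2 (VARS2), against 2.47% of all genes, and 0 were higher, against 0.842%. In MHCC97H VARS2 was again the 1 lower, against 2.68% of all genes, with 0 higher, against 0.464%. In Hep3B 2 were lower (LARS2 and AARS2), against 7.73% of all genes, and 0 higher, against 1.89%. The median log2 ratio of all genes was 0.18 in HCCLM3, 0.16 in MHCC97H and -0.02 in Hep3B, and 26, 23 and 20 of 36 synthetases lay below that of their line. The cytosolic genes had medians of -0.08, 0.13 and -0.04 and the mitochondrial genes of -0.14, 0.03 and -0.21, in HCCLM3, MHCC97H and Hep3B, and median-ratio scaling turned the sign of 3 of these 6 medians (cytosolic in MHCC97H and Hep3B, mitochondrial in MHCC97H). With median-ratio scaling the count lower by a ratio of at least 2 was 3 in HCCLM3, against 3.43% of all genes, and 1 in Hep3B, against 6.4%.

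A group of mitochondrial enzymes was low in RNC-mRNA in all 3 lines. VARS2 was at log2 ratios of -1.32 (95% counting interval -1.40 to -1.24) in HCCLM3, -1.32 in MHCC97H and -0.86 in Hep3B. LARS2 was at -0.90, -0.73 and -1.21, AARS2 at -0.94, -0.84 and -1.07, and IARS2 at -0.82, -0.85 and -0.81. TARS2 followed with -0.65, -0.71 and -0.40. In each line VARS2, LARS2, AARS2, IARS2 and TARS2 were below all the other mitochondrial synthetases. Other mitochondrial genes were above 0 in every line as deposited. These were WARS2 at 0.36, 0.59 and 0.44, RARS2 at 0.37, 0.49 and 0.19 and FARS2 at 0.22, 0.20 and 0.26. NARS2 was at 0.30, 0.17 and 0.15, and EARS2 at 0.18, 0.19 and 0.07. Among cytosolic genes EPRS was low in each line, at -0.41, -0.36 and -0.59, and KARS high, at 0.27, 0.31 and 0.32. The members with long gene models tended to have the lower ratios, with Spearman's rho over the 36 members of -0.46 in HCCLM3, -0.49 in MHCC97H and -0.65 in Hep3B. This is a description over members that share their libraries, and the part of length in the ratios was not tested. Model lengths ran from 1692 bases for FARS2 to 6054 bases for VARS2.

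**Figure D4:**
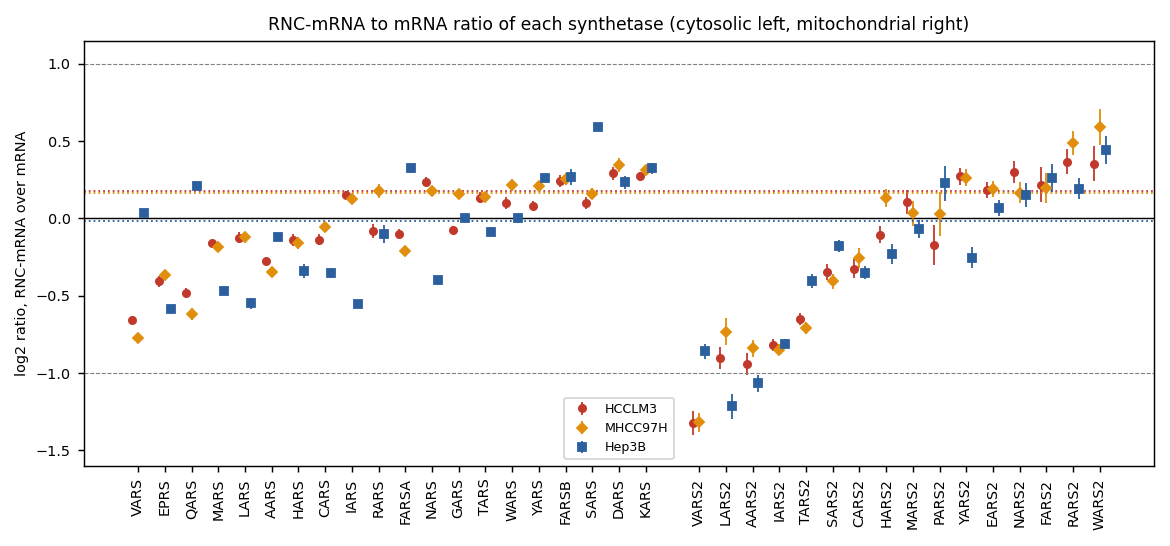
Log2 ratio of RNC-mRNA over mRNA of each synthetase in HCCLM3 (red circles), MHCC97H (orange diamonds) and Hep3B (blue squares), cytosolic genes left and mitochondrial genes right, each ordered by the mean over the lines. Bars are 95% counting intervals, dotted lines the median of all genes in each line, and dashed lines a ratio of 2. Among the mitochondrial genes VARS2, LARS2, AARS2, IARS2 and TARS2 lie lowest. VARS and QARS lie below 0 in HCCLM3 and MHCC97H and at 0.04 and 0.21 in Hep3B.

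The fractions were tested over the 3 lines on the deposited counts with edgeR's quasi-likelihood test, with the line as a block, since both fractions come from the same cultures. Here the lines stand in for replicates, and HCCLM3 and MHCC97H are not independent of each other. Of 11905 genes with a mean of at least 1 RPKM, 3 of 36 synthetases were lower in RNC-mRNA at an adjusted p under 0.05, against 2.65% of all genes, and 0 were higher, against 0.0672%. All 3 were mitochondrial. LARS2 had a log2 fold change of -1.01 (SE 0.12, edgeR adjusted p = 0.0425), AARS2 of -1.0 (SE 0.11, edgeR adjusted p = 0.0401) and IARS2 of -0.87 (SE 0.12, edgeR adjusted p = 0.0492), each lower in 3 of 3 lines. VARS2 had the largest difference, -1.23 (SE 0.20), but an edgeR adjusted p of 0.0637, and TARS2 had -0.63 (SE 0.16, edgeR adjusted p = 0.104). At an unadjusted p under 0.05 there were 10 of 36 synthetases, a share near the 28.1% of all genes. DESeq2 called 6 of 36, all lower, against 10.9% of all genes, and added VARS2, TARS2 and EPRS. Over the alternatives tried, the adjusted p ranged from 1.051e-08 to 0.4737 for LARS2, from 2.139e-09 to 0.5449 for AARS2, from 1.496e-09 to 0.7633 for IARS2 and from 4.545e-11 to 0.8038 for VARS2, with edgeR or DESeq2. Without the line block edgeR called 0 synthetases, with 3 at an unadjusted p under 0.05, against 7.33% of all genes. The calls needed HCCLM3 and MHCC97H. Without HCCLM3 and without MHCC97H 0 synthetases were called, with edgeR adjusted p for LARS2 of 0.218 and 0.105, for AARS2 of 0.164 and 0.0992 and for IARS2 of 0.268 and 0.213. Without Hep3B all 3 kept their calls and 21 were called, 16 lower, against 33.6% of all genes, and 5 higher, against 35.2%. With library totals in place of TMM scaling LARS2 missed the threshold (edgeR adjusted p = 0.0640) and with RLE scaling IARS2 did (edgeR adjusted p = 0.0521).

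In 5 members RNC-mRNA stood on one side of mRNA in HCCLM3 and MHCC97H and on the other in Hep3B, both as deposited and relative to the median of all genes of each line, and the deposited ratios differed from 0 by more than their counting intervals. VARS was at log2 ratios of -0.66 in HCCLM3, -0.77 in MHCC97H and 0.04 in Hep3B, and the last was -0.06 with upper-quartile scaling. QARS was at -0.48, -0.62 and 0.21, and FARSA at -0.10, -0.21 and 0.32. NARS had the opposite signs, at 0.24, 0.18 and -0.40, as did YARS2, at 0.27, 0.26 and -0.25. IARS, at 0.15, 0.12 and -0.55, differed in sign as deposited, but it lay below the median of all genes in all 3 lines, and the same held for TARS and MARS2. Relative to that median NARS was above by 0.01 in MHCC97H, within its counting half-width of 0.027. The difference of these ratios between lines was not tested, as 1 library per line and fraction leaves no residual for it. How many of all genes had such opposite signs was not counted.

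The genes that act beside the synthetases were taken by lists. In the comparisons with Hep3B, 17.4% to 21.3% of all genes passed a ratio of 2 as lower and 18.0% to 25.5% as higher. Of the 3 scaffold proteins of the multisynthetase complex, AIMP2 was lower in HCCLM3 and MHCC97H than in Hep3B by a ratio of at least 2 in RNC-mRNA, with 38.6 RPKM in HCCLM3 and 37.0 RPKM in MHCC97H RNC-mRNA, against 83.2 RPKM in Hep3B RNC-mRNA, and 37.1 RPKM in HCCLM3 and 34.2 RPKM in MHCC97H mRNA, against 63.3 RPKM in Hep3B mRNA. AIMP1 and EEF1E1, the other two, stayed within a ratio of 2. The 8 synthetases of the complex had median log2 ratios over Hep3B of 0.16 in HCCLM3 and 0.10 in MHCC97H RNC-mRNA and of -0.29 and -0.22 in mRNA. The 12 outside it had medians of -0.35 and -0.35 in RNC-mRNA and of -0.41 and -0.30 in mRNA. The median of all genes in RNC-mRNA was 0.24 for HCCLM3 and 0.25 for MHCC97H. Below it lay 6 of the 8 in the complex and 9 of the 12 outside it, in each line. Mitochondria have no glutaminyl-tRNA synthetase and use an amidotransferase on glutamate-charged tRNA instead. Of its subunits, QRSL1 had 3.69 RPKM in HCCLM3 and 3.41 RPKM in MHCC97H RNC-mRNA, against 7.99 RPKM in Hep3B RNC-mRNA, and 3.22 RPKM in HCCLM3 and 2.93 RPKM in MHCC97H mRNA, against 7.20 RPKM in Hep3B mRNA. GATC had 30.3 RPKM in HCCLM3 and 30.7 RPKM in MHCC97H RNC-mRNA, against 13.1 RPKM in Hep3B RNC-mRNA, and 21.6 RPKM in HCCLM3 and 22.1 RPKM in MHCC97H mRNA, against 12.3 RPKM in Hep3B mRNA. QRSL1 was thus lower and GATC higher in HCCLM3 and MHCC97H than in Hep3B, GATC past a ratio of 2 in RNC-mRNA and QRSL1 in both fractions. PET112, the third subunit, and MTFMT, which formylates the initiator tRNA of mitochondria, stayed within a ratio of 2.

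Of 7 factors that deliver charged tRNA to the ribosome, 3 passed a ratio of 2 in a comparison with Hep3B. In any 1 comparison at most 1 of 7 was lower, against 17.4% to 21.3% of all genes. At most 1 of 7 was higher, against 18.0% to 25.5%. EEF1G, a subunit of the exchange-factor complex that VARS joins, had 482 RPKM in HCCLM3 and 457 RPKM in MHCC97H RNC-mRNA, against 1225 RPKM in Hep3B RNC-mRNA, and 457 RPKM in HCCLM3 and 446 RPKM in MHCC97H mRNA, against 780.1 RPKM in Hep3B mRNA, so it too was lower than in Hep3B and farther so in RNC-mRNA. EEF1D was higher in HCCLM3 mRNA, with a log2 ratio of 1.19, and EEF1A2 in MHCC97H, with 1.02 in RNC-mRNA and 1.72 in mRNA. Of 4 genes of tRNA editing, export and a synthetase paralogue, 1 passed a ratio of 2 between lines, as higher, against 18.0% to 25.5% of all genes. DTD1, which removes D-amino acids from tRNA, was higher than in Hep3B in both lines and fractions, by 1.59 and 1.41 in RNC-mRNA and 1.89 and 1.61 in mRNA for HCCLM3 and MHCC97H. AARSD1, a paralogue of the editing domain of AARS, was lower in RNC-mRNA than in mRNA, at -0.87 in HCCLM3, -1.07 in MHCC97H and -0.84 in Hep3B, near the values of AARS2. SEPSECS, which makes selenocysteine on its tRNA, had 1.18 RPKM in HCCLM3 and 1.12 RPKM in MHCC97H RNC-mRNA, against 4.11 RPKM in Hep3B RNC-mRNA, and 0.739 RPKM in HCCLM3 and 0.844 RPKM in MHCC97H mRNA, against 4.46 RPKM in Hep3B mRNA, lower than in Hep3B in every comparison, while its partner PSTK was below 1 RPKM in all libraries.

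ATF4 and 8 of its targets outside the synthetases differed in both directions. ATF4 itself had 148 RPKM in HCCLM3 and 169 RPKM in MHCC97H RNC-mRNA, against 295 RPKM in Hep3B RNC-mRNA, and 112 RPKM in HCCLM3 and 122 RPKM in MHCC97H mRNA, against 197 RPKM in Hep3B mRNA. Its log2 ratios over Hep3B were -1.0 and -0.80 in RNC-mRNA and -0.81 and -0.68 in mRNA, short of a ratio of 2. In both lines and fractions 4 of the 9 were lower by the rule, against 17.4% to 21.3% of all genes. They were the asparagine synthetase ASNS, the glutathione-cleaving enzyme CHAC1 and the serine synthesis enzymes PSAT1 and PHGDH. ASNS had 14.6 RPKM in HCCLM3 and 16.3 RPKM in MHCC97H RNC-mRNA, against 40.5 RPKM in Hep3B RNC-mRNA, and 14 RPKM in HCCLM3 and 14.2 RPKM in MHCC97H mRNA, against 37.2 RPKM in Hep3B mRNA. CHAC1 had 2.18 RPKM in HCCLM3 and 3.03 RPKM in MHCC97H RNC-mRNA, against 54.6 RPKM in Hep3B RNC-mRNA, and 1.73 RPKM in HCCLM3 and 2.82 RPKM in MHCC97H mRNA, against 33.9 RPKM in Hep3B mRNA. By contrast SLC7A11, the cystine importer, was higher in both lines and fractions, with 24.6 RPKM in HCCLM3 and 30.1 RPKM in MHCC97H RNC-mRNA, against 1.94 RPKM in Hep3B RNC-mRNA, and 16.0 RPKM in HCCLM3 and 18.9 RPKM in MHCC97H mRNA, against 3.62 RPKM in Hep3B mRNA, and its partner SLC3A2 was higher by the rule in mRNA. DDIT3 and TRIB3 stayed within a ratio of 2 between lines. Since DDIT3 overlaps MARS in the annotation, its counts carry the same uncertainty. Of the interferon-induced genes listed beside WARS, GBP1 was higher in HCCLM3 and MHCC97H by the rule and IRF1 stayed within a ratio of 2.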

How the data were processed

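The authors deposited, for every library, gene by gene a whole-number read count, in which a gene without a read has no line, as the files show. Beside it stands an RPKM value, which the authors made from the count, the length of the gene model and a library total of their own, as the file headers and the proportion of the values show. Genome build hg19 and edgeR are named in the submitters' processing notes, without a role. Which aligner and counting program were used, and how strand, multiply mapped reads and overlapping genes were handled, could not be learned from the labels. The RNA came from 3 cultures pooled before the library, per the design text.

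Levels and ratios used RPKM as deposited, with 0 where a gene had no line and a pseudocount of 0.1 RPKM. On this scale the change of a low gene is understated. Each library stood alone, so line and fraction ratios have 95% counting intervals and no p-value. The fractions were compared over the 3 lines with edgeR 4.0.16 (limma 3.58.1, R 4.3.3) on the deposited counts, with TMM scaling, the line as a block and Benjamini-Hochberg adjustment over 11905 genes with a mean of at least 1 RPKM. The pairing by line comes from the design, as both fractions of a line were prepared from the same cultures. The step was tested on simulated counts with a fixed dispersion and the same fraction effect in every line. It recovered 99 of 100 genes given a log2 change of 1, and 100 of 100 given 2, with 7 false calls. In these data the calls changed with the line left out, so the simulation does not tell how the test fares where lines differ. DESeq2 1.42.0 was an alternative. Other work used Python 3.11.15, numpy 2.4.6, pandas 2.3.3, scipy 1.17.1 and matplotlib 3.10.9.

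Genes described with the value in every library were the 5 highest and the 5 lowest by mean RPKM in each compartment, those past a ratio of 2 between lines and those past the adjusted p threshold of 0.05. The values of other members were added after they were seen. Of the lists of other genes, members past a ratio of 2 between lines were named. The result of 1 listed gene is not reported here. The members, lists and tests were chosen with earlier results of these data known. Gene names, neighbours and overlaps came from the RefSeq table of GRCh38.p14, in which all 36 members and 18094 of 19089 names were found. Its build is not that of the files, so no coordinate of the files was used with it.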

Additional observations from a re-analysis of the deposited data

Results flagged for a closer look

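For 8 synthetases the RNC-mRNA to mRNA ratio as deposited had one sign in HCCLM3 and MHCC97H and the other in Hep3B. For 5 of them this also held relative to the median of all genes of each line. The other 3, IARS, TARS and MARS2, lay below that median in every line, and their log2 ratio in Hep3B minus the mean of HCCLM3 and MHCC97H was -0.69, -0.22 and -0.14. How many of all genes had such opposite signs was not counted, so these counts cannot be set against a share of all genes. Of the 9662 genes 32.7% lay below 0 in HCCLM3, 35.2% in MHCC97H and 51.1% in Hep3B, as deposited. The difference between lines was not tested for any of the 8, because each line and fraction had 1 library. This difference was 0.7645 for QARS, 0.7516 for VARS and 0.4805 for FARSA, which were relatively more abundant in the RNC-mRNA of Hep3B. It was -0.6079 for NARS and -0.5220 for YARS2, which were relatively less abundant there. All these differences are of ratios as deposited. The median of all genes was itself -0.02 in Hep3B, against 0.18 in HCCLM3 and 0.16 in MHCC97H. That shift is larger than the difference of MARS2. For VARS the Hep3B value was 0.04 as deposited and -0.06 with upper-quartile scaling, so its opposite signs are lost there.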

How the results depend on the processing

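With a ratio of 1.5 in place of 2, in RNC-mRNA 17 synthetases passed for HCCLM3 over Hep3B, 16 for MHCC97H over Hep3B and 3 for HCCLM3 over MHCC97H, and in mRNA 14, 13 and 3, where 63.4%, 62.7%, 9.11%, 59.8%, 57.5% and 8.5% of all genes did. Between the fractions 6 passed in HCCLM3, 8 in MHCC97H and 6 in Hep3B, against 18.2%, 19.2% and 30.1% of all genes. At a ratio of 4 the count was 0 in every comparison. Median-ratio scaling gave 8 in RNC-mRNA for each of HCCLM3 and MHCC97H over Hep3B, and between the fractions 3 in HCCLM3 and 1 in Hep3B. Upper-quartile scaling gave 5 for HCCLM3 and 4 for MHCC97H over Hep3B in mRNA and 3 between the fractions of HCCLM3. Between the fractions a filter at 5 RPKM left 0 in HCCLM3, 0 in MHCC97H and 1 in Hep3B, since it removes low members such as VARS2, and a pseudocount of 1 RPKM left 0 in Hep3B. Of 72 such counts 45 stayed within 1.5 times the reported one. Of the medians, 5 changed sign. Median-ratio scaling gave 0.01 for the cytosolic genes of HCCLM3 over MHCC97H in mRNA (upper quartile likewise 0.01), and between the fractions -0.02 for the cytosolic genes of MHCC97H, 0.06 for those of Hep3B and -0.11 for the mitochondrial genes of MHCC97H (upper quartile -0.06). The 5 RPKM filter gave 0.11 for the mitochondrial genes of HCCLM3 between the fractions.

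For the test over the lines, the fit with no replicate block, fractions unpaired, called 0 synthetases and 0 genes higher and 0 lower, and DESeq2 called 6 synthetases, 662 genes higher and 1300 lower, against 3, 8 and 316 in the reported fit. Testing any gene with a read called 431 genes higher and 1443 lower. Leaving out a line gave 0 to 21 synthetases, 3 to 4187 genes higher and 119 to 4005 lower, with the extremes without HCCLM3 and without Hep3B. Where a cause is not named it was not tested. Counting half-widths of the members' log2 ratios were at most 0.14, though a ratio such as 0.03 for PARS2 between the fractions of MHCC97H is smaller. The part of depth was not tested. What limits every ratio is 1 library per line and fraction.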
